A study of Homo sapiens with 12 samples.

Results

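The proteasome genes of this series are the entries of the deposited table in which a gene symbol begins with PSM, followed by a letter from A to G and a number. They name the subunits of the proteasome and the chaperones that assemble it, and there are 48 of them among 25787 entries with a symbol. Cultures of TC-71, a human Ewing sarcoma line that carries the EWS-FLI1 fusion, were profiled by RNA sequencing in 4 groups of 3 libraries. Cells of 1 group received DMSO for 16 hours and those of the next received YK-4-279, a small molecule developed to keep EWS-FLI1 from binding the RNA helicase DHX9, for 16 hours at 2 mM as labelled, a dose whose unit may be in error and could not be checked here. The other groups were collected 48 hours after transfection with a scrambled control or with an RNA against DHX9 (siDHX9). The protocols call this reagent an siRNA and the design text an shRNA, whose sequence was not given in the sources used here. All 4 groups are the same line and share its fusion, so libraries of a group differ as cultures do, and the drug and transfection arms differ in time and handling as well as in agent.

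The proteasome degrades proteins tagged with ubiquitin. Its core particle is a stack of rings, with PSMA subunits in the outer alpha rings and PSMB subunits, some of which cut the protein, in the inner beta rings. A regulatory particle caps the core: its base holds the ring of PSMC ATPases that unfold the substrate. PSMD subunits belong to its base or its lid, and some of them bind or remove ubiquitin. Separate chaperones hold the parts during assembly and then leave. PSMG1 to PSMG4 act on the core, while PSMD5, PSMD9 and PSMD10 each hold ATPases of the base, in spite of symbols that read like subunits. PSMD10, also called gankyrin, binds the ATPase PSMC4 and is further known as an oncoprotein of liver cancer. When proteasome activity falls, the transcription factor NFE2L1 raises the subunit genes together through antioxidant response elements in their promoters.

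Totals per library ranged from 38.6 to 65.5 in units of 1e6 reads, and levels are given as counts normalised with the authors' size factors. All 10 Ewing sarcoma markers examined passed the minimum given below, with sums of 60280 to 72600 normalised counts per library, while 9 markers of blood, epithelium, endothelium and muscle summed to 7.4 to 34.77. A further blood marker, CD68, shares its entry with abundant genes and was not read. The DHX9 entry, which also covers the neighbouring gene NPL, fell by 36.9% in siDHX9 against scrambled libraries (log2 −0.66 ± 0.07 SE, limma adjusted p = 4.54e-05). A gene was called changed at a Benjamini-Hochberg adjusted p under 0.05 in limma, fitted over all 14225 named entries with a mean of at least 10 normalised counts. Of the 48 proteasome genes 44 passed that minimum, and the remaining 4 are the testis alpha subunit PSMA8, the thymus subunit PSMB11 and the immune subunits PSMB8 and PSMB9. Changes are on the log2(normalised count + 1) scale.

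The promoters of the genes on which the results turn are shown first, as the bases upstream of the transcription start in RefSeq on GRCh38.p14, written 5′ to 3′ on the gene's strand. Capitals mark matches, on either strand, to an antioxidant response element pattern (TGACNNNGC or TGAGNNNGC), the core of sites bound by ETS factors such as the FLI1 part of the fusion (CCGGAAG), and the CCAAT box (CCAAT). For PSMD10 the 235 bases shown lie between its own start and that of ATG4A, the neighbour transcribed the other way.
PSMD10, chrX:108091543-108091777, minus strand: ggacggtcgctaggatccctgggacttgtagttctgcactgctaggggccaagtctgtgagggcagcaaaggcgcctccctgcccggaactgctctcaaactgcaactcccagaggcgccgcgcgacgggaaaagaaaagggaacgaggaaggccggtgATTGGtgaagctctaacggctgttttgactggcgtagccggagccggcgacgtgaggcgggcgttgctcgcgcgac
PSMD5, chr9:120842923-120843172, minus strand: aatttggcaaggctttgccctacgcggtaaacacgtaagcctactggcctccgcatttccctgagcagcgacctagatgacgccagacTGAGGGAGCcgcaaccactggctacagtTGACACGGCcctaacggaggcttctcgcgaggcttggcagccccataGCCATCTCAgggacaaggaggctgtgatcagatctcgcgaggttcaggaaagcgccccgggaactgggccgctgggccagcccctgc
PSMD9, chr12:121888540-121888789, plus strand: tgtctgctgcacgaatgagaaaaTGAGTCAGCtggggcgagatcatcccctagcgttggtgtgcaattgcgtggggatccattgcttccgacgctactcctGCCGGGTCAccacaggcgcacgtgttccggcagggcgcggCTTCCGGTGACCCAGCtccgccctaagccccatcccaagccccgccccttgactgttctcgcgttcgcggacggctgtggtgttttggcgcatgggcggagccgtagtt
PSMF1, second of its RefSeq starts, chr20:1118352-1118601, plus strand: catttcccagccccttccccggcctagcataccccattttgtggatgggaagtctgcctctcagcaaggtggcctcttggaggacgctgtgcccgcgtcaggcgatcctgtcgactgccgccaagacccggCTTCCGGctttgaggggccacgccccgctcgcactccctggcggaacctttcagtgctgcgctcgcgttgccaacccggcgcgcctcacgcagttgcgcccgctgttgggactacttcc
The PSMD10 sequence held a CCAAT box on the reverse strand, 76 to 72 bases before the start, and neither of the other motifs. The PSMD5 and PSMD9 sequences each held 3 matches to the antioxidant response element pattern, and in PSMD9 the last of these adjoins an ETS core. The PSMF1 sequence held an ETS core 119 to 113 bases before the start, and the same stretch before its first RefSeq start, not shown, held none of the 3 motifs. RefSeq promoters, from 250 bases before the start to 50 after it, were matched for 42 of the 48 genes, 51 promoters in all. Of those 51, the antioxidant response element pattern was found in 45.1%, against 29.1% of all 35116 promoters in the table. The ETS core was found in 29.4% against 10.3%, and the CCAAT box in 39.2% against 34.6%. These are letter matches, and binding was not measured. The promoters compared were not matched for expression level or base content, so the shares cannot be read as particular to proteasome genes.

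PSMD10 fell in the DHX9 knockdown, and none of the other proteasome genes changed by a comparable amount. Its entry (GSHG0032264, hg19 chromosome X, 107327435 to 107334874) held 1827, 1566 and 1514 normalised counts in siDHX9 libraries 1 to 3. The scrambled libraries held 4112, 4096 and 4769, the DMSO libraries 4820.4, 4597 and 4684, and the YK-4-279 libraries 4498, 4198 and 4471. Every siDHX9 library lay far below all 9 others, whose values ranged from 4096 to 4820.4. The mean was 1636 ± 168 (SD, n = 3) in siDHX9 against 4326 ± 384 in scrambled libraries, or 62.2% lower (log2 −1.40 ± 0.09 SE, 95% interval −1.59 to −1.22, limma adjusted p = 3.52e-07). Against DMSO the log2 difference was −1.53 ± 0.09 SE (limma adjusted p = 5.1e-07). The exact permutation test of 3 against 3 values gave p = 0.1 for each of these, two-sided, the smallest it can give. In a bulk culture, fewer cells that express a gene and less of its RNA in each cell cannot be told apart. The values rest on 4879 reads in siDHX9 and 13770 reads in scrambled libraries, and no named entry overlaps PSMD10 in the deposited annotation.

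Among all 14225 genes the fall of PSMD10 in siDHX9 against scrambled libraries ranked 59th by log2 change and 9th by p. Among the 5262 genes with a mean of at least 1000 normalised counts it was the third largest. DHX9 itself, the targeted gene, changed by log2 −0.66, a smaller difference than that of PSMD10. All 3 knockdown libraries carry the same siDHX9 label. Whether the fall of PSMD10 came with lower DHX9 or with the reagent itself was not tested. In scrambled against DMSO libraries PSMD10 differed by log2 −0.12 ± 0.09 SE (95% interval −0.31 to 0.06, limma adjusted p = 0.343, exact permutation p = 0.3), and the groups overlapped. With YK-4-279 it was lower in 3 of 3 libraries by log2 −0.10 ± 0.09 SE (95% interval −0.29 to 0.09, limma adjusted p = 0.48, exact permutation p = 0.1). The drug's effect minus the knockdown's effect was 1.30 ± 0.12 SE on the log2 scale for PSMD10 (limma adjusted p = 7.14e-05), so the test found that they differ.

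**Figure D1:**
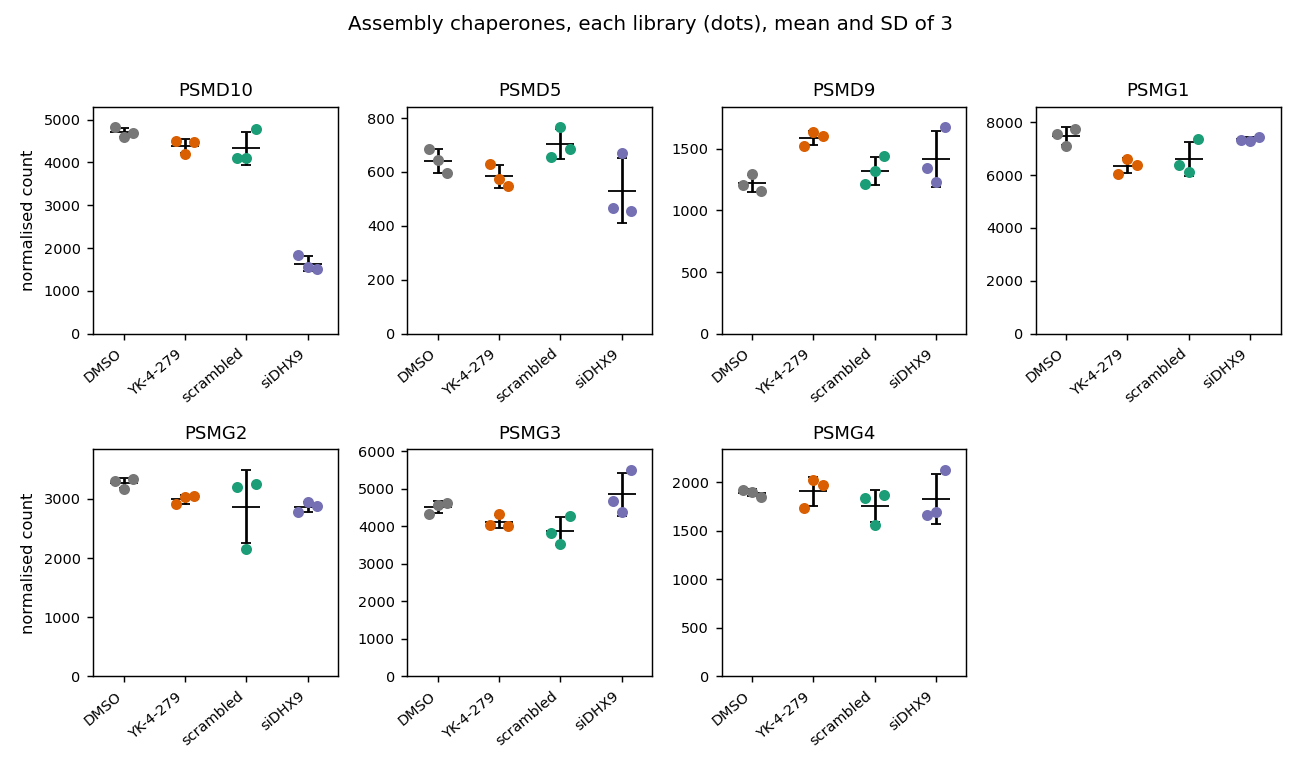
Normalised counts of the 7 assembly chaperones by group, where each dot is a library and the black bar and whisker are the mean and SD of 3. The siDHX9 libraries of PSMD10 sit between 1514 and 1827, below the 9 libraries of the other groups. For PSMD5, siDHX9 replicates 1 and 3, at 466 and 456, also lie below those 9, the lowest of which is 548. For PSMG3, siDHX9 replicate 3, at 5495, lies above them. The remaining siDHX9 dots of the other chaperones lie within or close to the range of the other groups.

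The nearest named entry on either side of PSMD10 that passed the minimum served as a measure of the surrounding region. Entries below the minimum that may lie nearer were not used. ATG4A, a protease of autophagy, has a deposited entry that lies 20 bases from the PSMD10 entry, a distance between entry limits and not between the RefSeq starts used above. It held 236, 279 and 306 normalised counts in siDHX9 and 335, 380.1 and 344 in scrambled libraries. Those groups did not overlap, but the difference was not called (log2 −0.37 ± 0.16 SE, limma adjusted p = 0.13). In DMSO libraries ATG4A held 242, 259 and 216, and it rose in scrambled libraries against these (log2 0.56 ± 0.16 SE, limma adjusted p = 0.0293). On the other side MID2, a ubiquitin ligase 152567 bases away, had log2 −0.57 ± 0.30 SE in siDHX9 against scrambled libraries (limma adjusted p = 0.202) at means of 33.8 and 51.1 normalised counts.

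The distance between PSMD10 and its family can be read within each library. On the log2 scale PSMD10 minus the median of the other 43 measured proteasome genes was −1.48 to −1.24 in the 9 libraries without the knockdown. In the siDHX9 libraries that difference was −2.61, −2.81 and −2.96. Taken gene by gene, the median of the 43 log2 differences from each gene's own DMSO mean ranged from −0.10 in scrambled replicate 1 to 0.11 in siDHX9 replicate 3. These distances are differences of normalised counts and carry each gene's length, which does not change between libraries. In the comparison of siDHX9 with scrambled libraries the other 43 genes had log2 changes of −0.43 to 0.43, and the lowest 95% bound among them, that of PSMD5, was −0.72, above the upper bound of −1.22 for PSMD10.

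**Figure D2:**
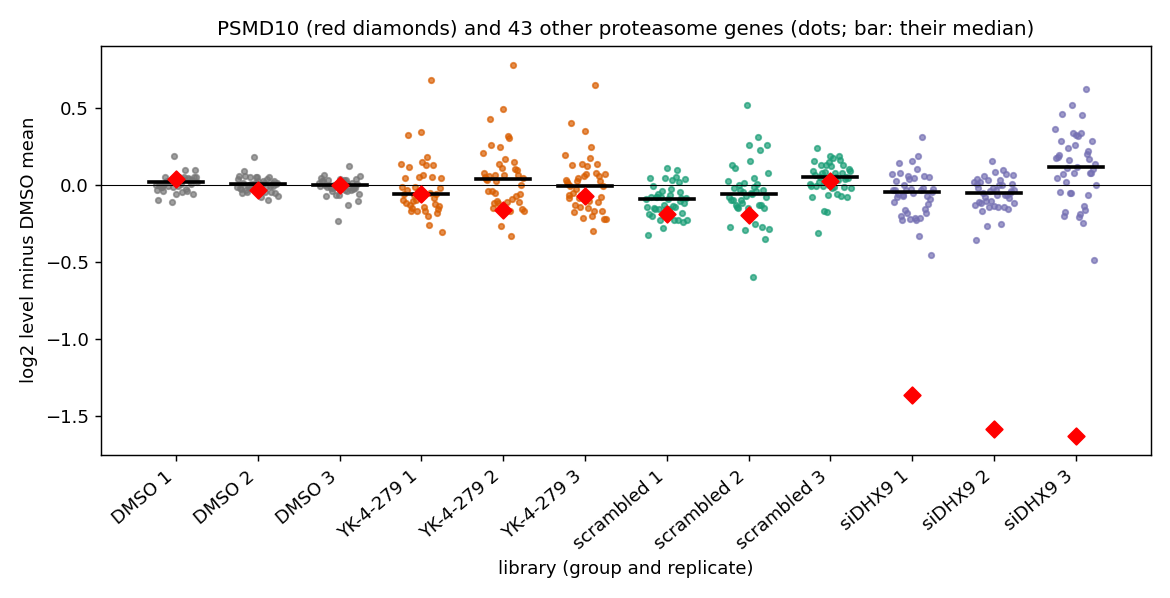
Log2 level of each measured proteasome gene in each of 12 libraries minus its mean in DMSO, with 43 genes as dots, their median as a black bar and PSMD10 as a red diamond. The diamonds leave the cloud of dots in the 3 siDHX9 libraries, and the cloud itself sits highest in siDHX9 replicate 3, with a median of 0.11.

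Of the 44 measured genes 4 were called in siDHX9 against scrambled libraries, 2 of them higher and 2 lower. That is 9.09%, beside 16.7% of all genes tested (8.75% higher and 7.97% lower). Groups did not overlap for 8 of the 44, beside 29.3% of all genes. The median log2 change was 0.04 for the 44 genes and −0.0024 for all genes tested. The share called was below the background in this fit, and 25 of the changes were positive and 19 negative. None of the 7 alpha subunits, 7 constitutive beta subunits, 6 ATPases or 11 non-ATPase subunits measured was called. Their log2 changes ran from −0.10 to 0.18, −0.03 to 0.18, −0.09 to 0.26 and −0.23 to 0.17 in that order. The only called genes were PSMD10, PSMD5, PSMB10 and PSMG3, of which 3 are chaperones. A fit of only the 6 libraries compared called PSMD10 alone, and its share of all genes called is not given here.

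PSMD5, the base chaperone that holds the ATPase PSMC2, held 466, 669.6 and 456 normalised counts in siDHX9 libraries and 657, 766 and 686 in scrambled libraries. The groups overlapped, since siDHX9 replicate 2 lay within the scrambled range. The call was at the edge of the threshold (log2 −0.43 ± 0.14 SE, limma adjusted p = 0.0499). It was lost in 17 of 23 alternative fits, 11 of them among the 12 fits that each left out 1 library, the exception being the fit without siDHX9 replicate 2. DMSO libraries held 686, 643 and 595, and YK-4-279 libraries held 630.1, 574 and 548, with overlap between them.

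PSMG3, which pairs with PSMG4 during assembly of the alpha ring, held 4669, 4387 and 5495 normalised counts in siDHX9 libraries and 3811, 3531 and 4263 in scrambled libraries. All 3 siDHX9 values lay above the scrambled ones, and the gene rose (log2 0.32 ± 0.09 SE, limma adjusted p = 0.0309). DMSO libraries, at 4320, 4575 and 4621, lay above the scrambled libraries too, so siDHX9 and DMSO overlapped (log2 0.10 ± 0.09 SE, limma adjusted p = 0.505). The call was lost in 6 of 23 alternative fits, 4 of which left out 1 library. Those 4 were without scrambled replicate 1 or 2 or siDHX9 replicate 1 or 3, with adjusted p values of 0.084, 0.104, 0.0598 and 0.106.

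PSMB10, the subunit that takes the place of PSMB7 in the immunoproteasome, held 1164, 1086 and 1597 normalised counts in siDHX9 libraries and 921, 909 and 988 in scrambled libraries. The groups did not overlap and the gene rose (log2 0.43 ± 0.13 SE, limma adjusted p = 0.0409), with the highest value in siDHX9 replicate 3. DMSO libraries at 1036, 1263 and 1066 and YK-4-279 libraries at 1086, 1226 and 1067 spanned the lower siDHX9 values. The call was lost in 12 of 23 alternative fits, among them those without DMSO replicate 1 or 3, YK-4-279 replicate 1 or 3, scrambled replicate 1 or 2 and siDHX9 replicate 1 or 3. Without siDHX9 replicate 3 the log2 change was 0.26 (adjusted p = 0.146). Its partners in the immunoproteasome, PSMB8 and PSMB9, were at the limit of detection, with 24 and 5 reads over all 12 libraries. PSMB8 had 6 reads in DMSO, 8 with YK-4-279, 0 in scrambled and 10 in siDHX9 libraries, and 3 reads in a library correspond to 2.24 to 3.85 normalised counts. PSMB9 had 2, 1, 0 and 2 reads in the same order. PSMB11 had 4 reads in all and PSMA8 had 0. No fold change was computed for these 4 genes.

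The other chaperones of the core did not pass the test in the knockdown. PSMG1, the partner of PSMG2, held 7309, 7275 and 7457 normalised counts in siDHX9 and 6368, 6119 and 7351 in scrambled libraries (log2 0.16 ± 0.08 SE, limma adjusted p = 0.173, or 0.036 without scrambled replicate 3). For PSMG2 the values were 2787, 2956 and 2873 in siDHX9 and 3209, 2160.2 and 3246 in scrambled libraries, with replicate 2 of the latter far below its fellows (log2 0.02 ± 0.12 SE, limma adjusted p = 0.912). PSMG4 held 1667, 1696 and 2127 against 1835, 1565 and 1871 (log2 0.05 ± 0.11 SE, limma adjusted p = 0.757). All of these groups overlapped. PSMD9, the base chaperone that holds PSMC3 and PSMC6, held 1342, 1232 and 1673 against 1213, 1316 and 1438 and overlapped as well (log2 0.09 ± 0.11 SE, limma adjusted p = 0.6). PSMG2 shares bases with CEP76 and PSMG4 with SLC22A23, so part of their reads is uncertain.

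The ATPases held by the base chaperones can be set beside them. PSMC4, the partner of PSMD10, held 11620.2, 10401 and 13976 normalised counts in siDHX9 and 9273, 10073 and 10530.4 in scrambled libraries, and its higher mean was not called (log2 0.26 ± 0.09 SE, 95% interval 0.06 to 0.46, limma adjusted p = 0.0718). The groups overlapped at siDHX9 replicate 2. PSMC2, the partner of PSMD5, had log2 0.06 ± 0.08 SE (95% interval −0.11 to 0.22), and PSMC3 and PSMC6, the partners of PSMD9, had 0.11 and −0.09. PAAF1, the chaperone of PSMC5 that lacks a PSM symbol, had log2 −0.04 ± 0.09 SE (limma adjusted p = 0.802), and POMP, which escorts the beta ring, had 0.09 ± 0.08 SE (limma adjusted p = 0.456).

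Library siDHX9 replicate 3 deserves mention beside these small rises. It was the highest of 12 libraries for 22 of the 44 genes, or 50%, against 16.8% of all genes tested. Without it the median log2 change of the 44 genes in siDHX9 against scrambled libraries was −0.03 and PSMD10 was the 1 gene called. Without siDHX9 replicate 2 there were 11 calls, and without siDHX9 replicate 1 or scrambled replicate 1 or 2 there was 1. Leaving out DMSO replicate 1 or 3 or YK-4-279 replicate 1 or 3, which enter only the shared estimate of spread, left 2 calls each. Shares of all genes called in these fits are not given here. PSMD10 was called in all 23 alternative fits, with log2 changes from −1.55 to −1.33.

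YK-4-279 changed 4 of the 44 genes: PSMF1, PSMD3 and PSMD9 rose and PSMD1 fell. That is 9.09%, beside 13.8% of all genes tested (7.33% higher and 6.49% lower). Groups did not overlap for 26 of the 44, beside 43.5% of all genes, 11 of them higher and 15 lower with the drug. The median log2 change was −0.0048 for the 44 genes and 0.02 for all genes, with 21 positive and 23 negative changes. No alpha, beta or ATPase subunit was called, and their log2 changes lay between −0.13 and 0.09, −0.01 and 0.14, and −0.17 and 0.24. The limma fit used 1 spread for all 4 groups, although replicates varied unequally. Against counting error, chi-square per degree of freedom between replicate pairs was 6.83 to 20.7 in DMSO and YK-4-279 libraries. In scrambled and siDHX9 libraries it was 26.5 to 78.8. With only the 6 libraries compared, the drug count was 14 and the knockdown count 1. Shares of all genes called in those fits are not given here, so these counts cannot be set against a background.

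PSMF1, which binds the core particle and can inhibit it, had the largest change. It held 3805, 4085 and 3722 normalised counts with YK-4-279 and 2334, 2221 and 2589 in DMSO libraries, with a wide gap between the groups. The rise was 1.63-fold (log2 0.70 ± 0.15 SE, 95% interval 0.39 to 1.01, limma adjusted p = 0.00683), and the call held in all 23 alternative fits. Scrambled libraries held 2535, 2945 and 2661, and siDHX9 libraries held 2952, 2152 and 3663, which spread around them (log2 0.08 ± 0.15 SE, limma adjusted p = 0.748). The drug's effect minus the knockdown's effect was 0.63 ± 0.20 SE (95% interval 0.19 to 1.07), which did not pass the threshold (limma adjusted p = 0.0682).

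PSMD3, a structural subunit of the lid, held 11795, 13055 and 11855 normalised counts with YK-4-279 and 8913, 9440 and 9538 in DMSO libraries. The groups did not overlap and the gene rose 1.31-fold (log2 0.40 ± 0.10 SE, limma adjusted p = 0.0183). In siDHX9 libraries it held 10347, 8450 and 11640 against 10030, 11131 and 10596 in scrambled libraries, with overlap (log2 −0.07 ± 0.10 SE, limma adjusted p = 0.641). Without DMSO replicate 1 or 2 or YK-4-279 replicate 2 the drug call was lost, with adjusted p values of 0.0773, 0.055 and 0.087.

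PSMD1, the large scaffold subunit of the base, moved the other way. It held 10779, 10243 and 10480 normalised counts with YK-4-279 and 13387, 12762 and 12568 in DMSO libraries, without overlap, and fell (log2 −0.30 ± 0.07 SE, limma adjusted p = 0.016). Scrambled libraries held 11646, 12557 and 13169 and siDHX9 libraries 11127, 12900 and 11733, which overlapped (log2 −0.06 ± 0.07 SE, limma adjusted p = 0.563). Without DMSO replicate 1 or 2 or YK-4-279 replicate 2 or 3 the adjusted p for the drug was 0.0772, 0.0526, 0.0737 and 0.0547. PSMD1 and PSMD3 are subunits of the same regulatory particle and changed in opposite directions.

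PSMD9 was the called chaperone with the drug. It held 1521, 1634 and 1606 normalised counts with YK-4-279 and 1206, 1294 and 1157 in DMSO libraries, with no overlap, a rise of 1.30-fold (log2 0.38 ± 0.11 SE, limma adjusted p = 0.0357). The call was lost when any of the 3 DMSO or 3 YK-4-279 libraries was left out, at adjusted p values from 0.0653 to 0.121, while the log2 change stayed between 0.34 and 0.43. PSMG1 held 6042, 6615 and 6393 with the drug against 7565, 7084 and 7747 in DMSO libraries, without overlap, and narrowly missed the threshold (log2 −0.23 ± 0.08 SE, limma adjusted p = 0.0593). It was called in 10 of 23 alternative fits. PSMG2 held 2909, 3026 and 3042 against 3310, 3176 and 3339, and PSMG3 held 4037, 4315 and 4010 against 4320, 4575 and 4621. Both were lower in 3 of 3 libraries without being called (log2 −0.13 ± 0.12 SE and −0.13 ± 0.09 SE, limma adjusted p = 0.515 and 0.382). PSMG4 held 1737, 2020 and 1972 against 1925, 1905 and 1854 and overlapped (log2 0.01 ± 0.11 SE, limma adjusted p = 0.969). Counts of calls with the drug were 1 without DMSO replicate 1, DMSO replicate 2 or YK-4-279 replicate 2, were 2 without YK-4-279 replicate 3 and were 9 without siDHX9 replicate 3. No share of all genes is given here for those fits.

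**Figure D3:**
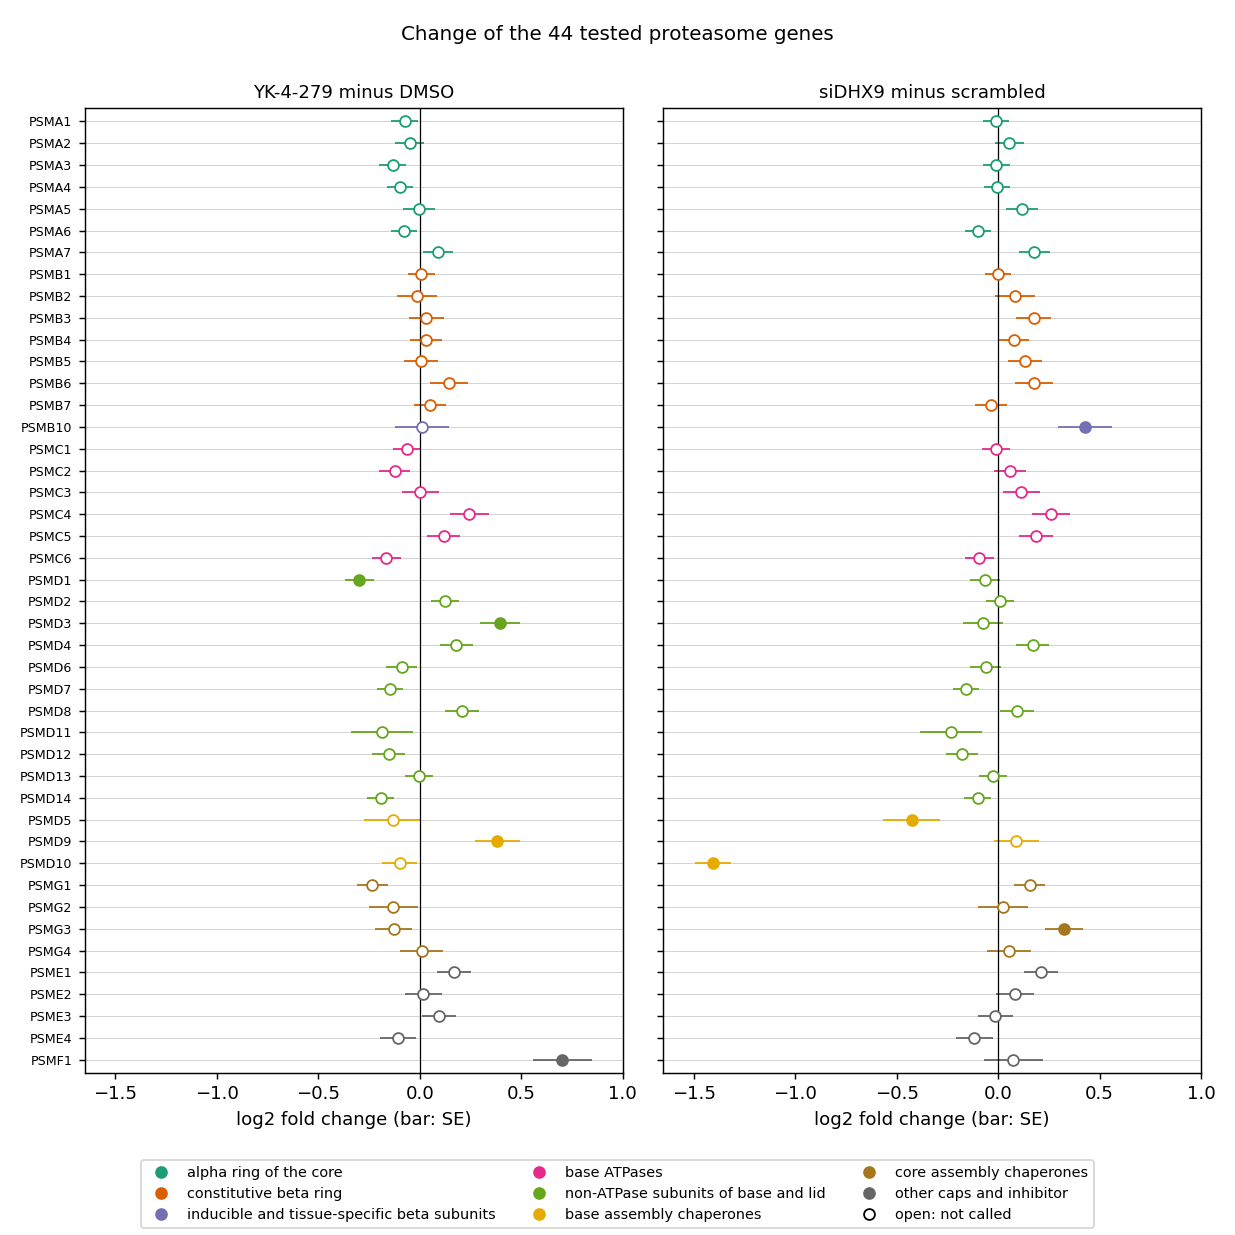
Log2 fold changes of the 44 measured genes with their SE, grouped by role in colour, for YK-4-279 minus DMSO on the left and siDHX9 minus scrambled on the right, where filled circles were called. The ring subunits lie close to 0 on both sides, PSMF1 at 0.70 is the farthest point on the left, and PSMD10 at −1.40 is the farthest on the right.

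**Figure D4:**
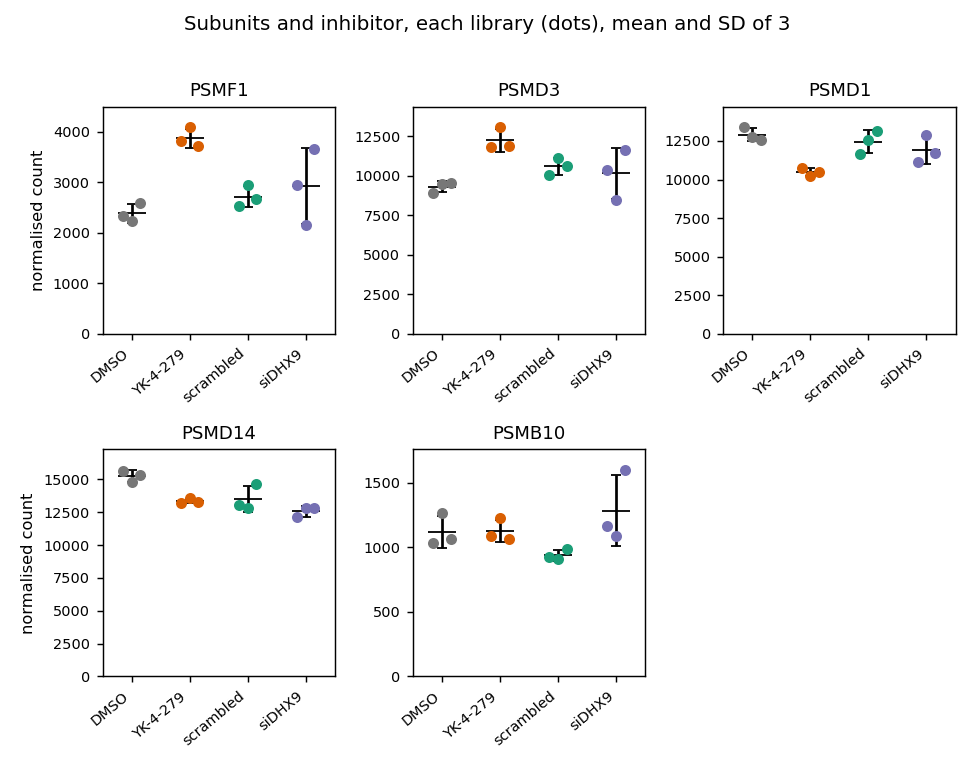
Normalised counts by group for the inhibitor PSMF1 and the subunits PSMD3, PSMD1, PSMD14 and PSMB10, with 1 dot per library and the mean and SD of 3. The 3 YK-4-279 libraries of PSMF1, at 3722 to 4085, lie above all 9 others, and the siDHX9 libraries of PSMF1, PSMD3 and PSMB10 are spread more widely than their controls.

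The knockdown libraries were also set beside DMSO, and the transfection control beside DMSO. These comparisons share the DMSO libraries with the drug comparison and the scrambled or siDHX9 libraries with the knockdown comparison, and they differ in transfection and time besides. In scrambled against DMSO libraries limma called 0 of the 44 genes, beside 18.9% of all genes, with 5 at an unadjusted p under 0.05, and groups did not overlap for 12, beside 40.8% of all genes. edgeR called 0 and DESeq2 called 1 in that comparison, and limma called 3 without scrambled replicate 3, 2 without siDHX9 replicate 3 and 1 without siDHX9 replicate 2. In siDHX9 against DMSO libraries 2 of 44 fell, PSMD10 and PSMD14, beside 15.6% of all genes called (7.33% lower), and groups did not overlap for 9, beside 34.8%. PSMD14, the enzyme of the lid that removes ubiquitin chains from the substrate, held 12106, 12789 and 12834 normalised counts in siDHX9 and 15644, 14764 and 15361 in DMSO libraries (log2 −0.28 ± 0.07 SE, limma adjusted p = 0.0126). The scrambled libraries, at 13022, 12809 and 14643, were also below DMSO, so siDHX9 and scrambled overlapped (log2 −0.10 ± 0.07 SE, limma adjusted p = 0.314). Without DMSO replicate 1 or siDHX9 replicate 1 its adjusted p against DMSO was 0.0591 and 0.0524. The count of 2 became 1 without either of those and 6 without siDHX9 replicate 2. For fits that left out a library, shares of all genes called are not given here.

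A direct test of the drug's effect against the knockdown's effect called 4 of 44 genes, beside 9.69% of all genes tested. For PSMD10 the difference was 1.30, given above. PSMD3 had a drug effect of 0.40 and a knockdown effect of −0.07 (difference 0.47 ± 0.14 SE, limma adjusted p = 0.0494). PSMG1 had −0.23 and 0.16 (difference −0.39 ± 0.11 SE, limma adjusted p = 0.0382), and PSMG3 had −0.13 and 0.32 (difference −0.45 ± 0.13 SE, limma adjusted p = 0.0443). The calls of PSMD3, PSMG1 and PSMG3 were lost in 14, 10 and 12 of 22 alternative fits. Of the 12 fits without 1 library, PSMD3 was called only without siDHX9 replicate 3. PSMG1 was called only without scrambled replicate 3, siDHX9 replicate 2 or siDHX9 replicate 3, and PSMG3 only without scrambled replicate 3 or siDHX9 replicate 2.

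Levels of different genes were compared per kb of transcript, for the 37 genes with an entry of their own and a principal transcript in GENCODE 29. Each length is that of the longest such transcript, which need not be the form these cells make. The order between genes is therefore approximate. Some entries, such as those of PSME2 and PSMB5, also overlap other named entries. The beta subunit PSMB1 had the highest level in DMSO, 53670 normalised counts per kb, and the lid subunit PSMD11 the lowest, 90.7. The constitutive beta subunits had a median of 16750 normalised counts per kb and the ATPases 5418. The 4 core chaperones had 1942 to 3466 and PSMD10 had 3040, within their range, while PSMD5 had 186. PSMD10 ranked 27th of 37 in DMSO and in YK-4-279 libraries and 26th in scrambled libraries, but 32nd in siDHX9 libraries, at 1058. Its neighbours in that order in DMSO were PSMG3 at 3239 and PSMA4 at 2752.

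**Figure D5:**
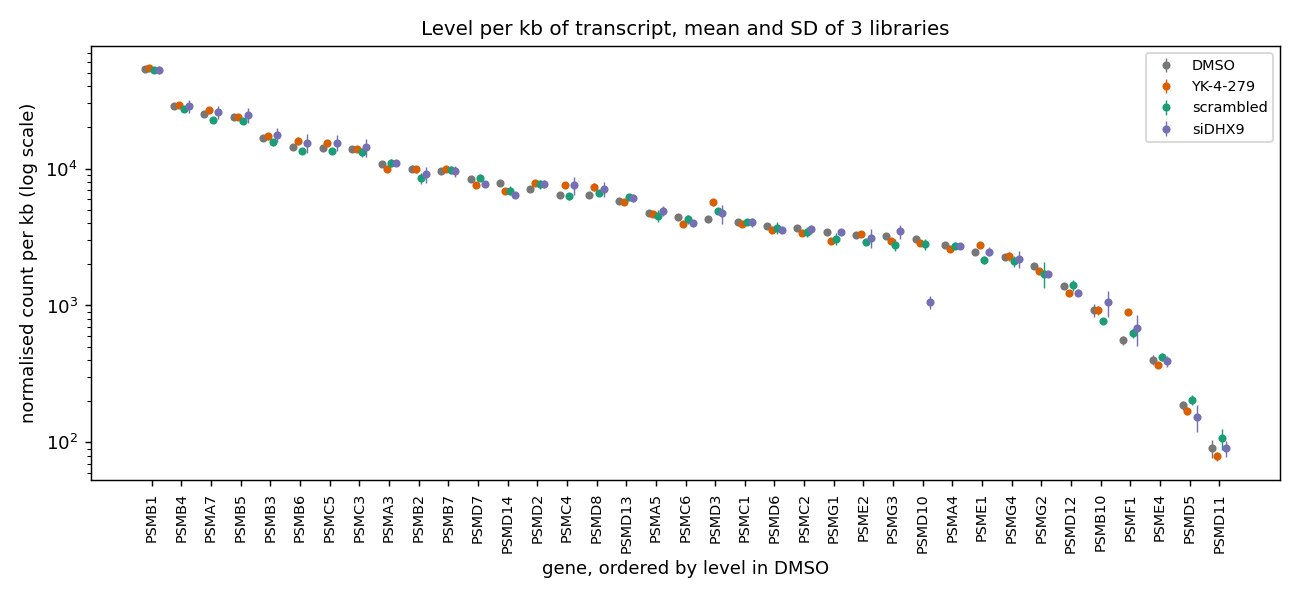
Normalised counts per kb of transcript on a log axis for 37 proteasome genes, ordered by their level in DMSO, with points for the means of the 4 groups and bars for the SD of 3 libraries. The 4 groups overlie each other for most genes, and the siDHX9 point of PSMD10, at 1058, lies apart from the 3 others, at 2798 to 3040.

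Related genes were counted in 5 short lists beside the family, against the same background: 16.7% of all genes called in siDHX9 against scrambled libraries (8.75% higher, 7.97% lower), 13.8% with YK-4-279 (7.33% higher, 6.49% lower) and 18.9% in scrambled against DMSO libraries. No list was tested as a whole. Of 7 subunits and chaperones that lack a PSM symbol, siDHX9 against scrambled libraries called 1, the deubiquitinase UCHL5, which fell (log2 −0.27 ± 0.09 SE, limma adjusted p = 0.0488), and YK-4-279 called 0. ADRM1, the ubiquitin receptor to which UCHL5 binds, fell in scrambled against DMSO libraries (log2 −0.54 ± 0.12 SE, limma adjusted p = 0.00717).

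Of 10 regulators of proteasome genes or of proteasome import 3 fell in siDHX9 against scrambled libraries and none rose, beside the shares above. NFE2L1 held 8066, 6800.3 and 8306 normalised counts against 11120.0, 10335 and 7971 (log2 −0.34 ± 0.11 SE, limma adjusted p = 0.0484), with overlap, and AKIRIN2, which brings proteasomes into the nucleus, fell by 0.38 ± 0.09 SE on the log2 scale (adjusted p = 0.0142). Both were higher in scrambled than in DMSO libraries (log2 0.38 and 0.31, limma adjusted p = 0.0252 and 0.0303), and siDHX9 against DMSO gave 0.05 and −0.07 (limma adjusted p = 0.801 and 0.65). BACH1, a repressor at antioxidant response elements, fell in siDHX9 against scrambled libraries (log2 −0.40 ± 0.10 SE, limma adjusted p = 0.0167) and with YK-4-279 (log2 −0.34 ± 0.10 SE, limma adjusted p = 0.0371), the 1 regulator called with the drug.

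Among 6 ubiquitin genes and activating enzymes the knockdown comparison called 1. UBA6, an activating enzyme, held 246, 332 and 158 normalised counts in siDHX9 and 499.5, 817 and 441 in scrambled libraries, without overlap, and fell (log2 −1.26 ± 0.26 SE, limma adjusted p = 0.00668). DMSO libraries held 427, 376 and 288, and siDHX9 against DMSO gave log2 −0.61 ± 0.26 SE (limma adjusted p = 0.127).

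Of 10 measured shuttle factors and segregase genes, which carry ubiquitinated proteins to the proteasome, 3 fell in siDHX9 against scrambled libraries. UBQLN1 held 2019, 2378 and 2225 normalised counts against 3038, 3864 and 3314, with no overlap (log2 −0.62 ± 0.09 SE, limma adjusted p = 0.000935). FAF1 and FAF2, cofactors of the segregase, fell by 0.28 and 0.21 on the log2 scale (adjusted p = 0.0121 and 0.0395). UBQLN1 rose in scrambled against DMSO libraries (log2 0.34 ± 0.09 SE, limma adjusted p = 0.0236), and siDHX9 against DMSO gave −0.28 ± 0.09 SE (limma adjusted p = 0.0567).

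Of 9 measured genes of class I antigen presentation, which shows proteasome products at the cell surface, 2 rose with YK-4-279, beside 7.33% of all genes. The peptide transporter TAP1 rose from 70.1, 52.6 and 46.2 to 117, 129 and 88.7 normalised counts (log2 0.98 ± 0.23 SE, limma adjusted p = 0.0149), and HLA-E, a class I molecule, rose by log2 0.38 ± 0.10 SE (limma adjusted p = 0.0232). In siDHX9 against scrambled libraries 1 rose: TAPBP, which loads peptides onto class I molecules, at 2378, 1885 and 2317 against 1526, 1631 and 1415 (log2 0.52 ± 0.10 SE, limma adjusted p = 0.00545). In scrambled against DMSO libraries HLA-E rose (log2 0.32 ± 0.10 SE, limma adjusted p = 0.038) and B2M, the light chain of class I, fell (log2 −0.42 ± 0.10 SE, limma adjusted p = 0.014).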

How the data were processed

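Total RNA of 12 TC-71 cultures was sequenced. The values are a signal that the authors deposited, counts divided by DESeq size factors per the file headers. Per the submitters' processing notes STAR 2.4.0, SAMtools, Picard, FastQC and DESeq were used with hg19. Whether counting used strand was not given in the sources used here. In each column 100% of values were whole multiples of the smallest one, within 0.1 reads, and these reads were used for depth, edgeR 4.0.16 and DESeq2 1.42.0. Reads without molecular identifiers give counting error only.

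Entries without a symbol (3.91 to 4.9% of reads) were left out. limma 3.58.1 (R 4.3.3, mean-variance trend, two-sided) was fitted to log2(value + 1) with 1 mean per group, 8 residual degrees of freedom and Benjamini-Hochberg adjustment over 14225 genes. The code was run on simulated data with the same dispersion in every group, which cannot test the effect of unequal spread. Alternatives were the added value, the minimum, the scaling, the tool, the libraries fitted, a replicate block and each library left out. Related genes were not refitted. PSMA1, PSMA2 and PSMA6 share their entries with other genes.

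The members, roles and lists were chosen with earlier results of these data known, including the fall of PSMD10. Values in every library are given for PSMD10, the other chaperones, the immunoproteasome subunits and up to 5 other called genes per comparison with the smallest adjusted p. Related genes are those called, up to 4 per list and comparison. Some called genes of those lists are not reported here. The ATPases held by chaperones were added by their known partner, not by value.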

Additional observations from a re-analysis of the deposited data

Results flagged for a closer look

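The effect of YK-4-279 against DMSO and the effect of siDHX9 against scrambled libraries differed for 4 proteasome genes in limma's test of that difference, adjusted over all genes. That is 9.09% of the 44 measured, beside 9.69% of all genes tested, so the count is near the background. For PSMD10 the difference on the log2 scale was 1.30 (−0.10 with the drug and −1.40 in the knockdown). For PSMD3, a lid subunit, it was 0.47 (0.40 and −0.07), for the core chaperone PSMG1 −0.39 (−0.23 and 0.16) and for its fellow PSMG3 −0.45 (−0.13 and 0.32). The adjusted p values were 7.14e-05, 0.0494, 0.0382 and 0.0443. PSMD10 kept its call in all 22 alternative fits, while PSMD3, PSMG1 and PSMG3 lost theirs in 14, 10 and 12 of them.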

How the results depend on the processing

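PSMD10 was called lower in siDHX9 against scrambled libraries in all 23 alternatives (log2 −1.55 to −1.33). Calls of proteasome genes with YK-4-279, 4 as reported, were 8 with quantile normalisation, 14 with only the 6 libraries compared and 1 to 9 with 1 library left out. In siDHX9 against scrambled libraries, 4 as reported, they were 2 with no minimum, 1 with only the 6 libraries, 1 without both scrambled replicates 1 and 2 (median change of members −0.0656) and 1 to 11 with 1 library left out (median −0.0266 to 0.0729). In scrambled against DMSO, 0 as reported, they were 1 with TMM, 2 with quantile normalisation, 1 with DESeq2 and 0 to 3 with 1 library left out. In siDHX9 against DMSO, 2 as reported, they were 1 to 6 with 1 library left out. For the difference of effects, 4 as reported, they were 2 with no minimum, 1 without both scrambled replicates and 1 to 5 with 1 library left out. The share of all genes called in each alternative fit is not given here. These counts therefore cannot be set against a background.

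Signs turned in these changes, none of them called as reported. With YK-4-279, PSMG4 was −0.0185 with TMM, −0.0049 with quantile normalisation, −0.0155 with edgeR, −0.0050 with DESeq2 and −0.0071, −0.0337 and −0.0162 without DMSO replicate 3 or YK-4-279 replicates 2 or 3, with 0.0751 the highest without 1 library. In siDHX9 against scrambled libraries, PSMG2 was −0.0123 with edgeR, −0.0064 with DESeq2 and −0.169 without scrambled replicate 2. PSMG4 was −0.0273 without scrambled replicate 2 and −0.0590 without siDHX9 replicate 3, where PSMD9 was −0.0366, against 0.184 at its highest. Without both scrambled replicates 1 and 2, PSMD9, PSMG1, PSMG2 and PSMG4 were −0.0342, −0.00085, −0.177 and −0.0415, and PSMD10 in scrambled against DMSO was 0.0213. The cause was not tested.

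Same-numbered libraries did not vary together (correlations of −0.103 to 0.12), so the numbers were not taken to pair them. With the replicate number as a block, 4, 3, 0, 2 and 3 genes were called in the comparisons as ordered above.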
